A study of Homo sapiens with 4 samples.

Results

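The regions described here were 940 multi-summit H3K4me3 domains of MHCC97L cells, a human hepatocellular carcinoma (HCC) cell line. They were chosen from the H3K4me3 library alone. Neighbouring summits on chromosomes 1 to 22 and X were joined where they lay at most 2000 bp apart, and a group was kept where it held 4 or more summits. The 46078 summits fell into 31022 groups. The 940 domains made up 3.03% of them (95% Wilson interval 2.85 to 3.23) and held 4386 summits, 9.52% of all (9.25 to 9.79). Set against them below were 2068 groups of 3 summits, 7474 groups of 2 and 20540 single summits.

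The study mapped 3 histone marks by chromatin immunoprecipitation and sequencing (ChIP-seq) in untreated, wild-type MHCC97L cells, grown in DMEM with fetal bovine serum and antibiotics. H3K4me3, H3K27ac and H3K4me1 were each measured in 1 library, and an input sample was labelled but is not used here. All 3 libraries were thus of the same line, genotype and treatment, and the comparisons below are between regions of these libraries. No replicate was present, so no p-value is given, and the intervals printed cover counting error only.

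H3K4me3 is laid down by the SET1 and MLL methyltransferase complexes, chiefly at the starts of active and poised genes with CpG-rich promoters. Most active promoters carry it in a narrow interval around the start. Unusually wide H3K4me3 domains are known from many tissues, where they have been linked to genes of cell identity and to steady transcription. H3K27ac marks active promoters and enhancers, and H3K4me1 marks enhancers and the borders of active promoters.

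The unit of the lists limits what "broad" means here. The lists gave 1 summit per called peak and no peak width, so a multi-summit domain was a run of separate neighbouring peaks. A single wide peak would appear as 1 summit and was not captured. The score of a summit is the peak caller's −log10 value as the authors deposited it, and higher means stronger. The sources used here do not say whether it is of a p-value or a q-value.

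The promoters of 6 genes with domains are shown to set CpG-rich starts at domains beside CpG-poor ones. Each is the 250 bases before a listed start, 5′ to 3′ in the direction of transcription, from RefSeq (GRCh38.p14). Capitals mark GC boxes (GGGCGG or its reverse complement CCGCCC) and CCAAT boxes (CCAAT or ATTGG).
MNT (chr17:2401061-2401310, minus strand): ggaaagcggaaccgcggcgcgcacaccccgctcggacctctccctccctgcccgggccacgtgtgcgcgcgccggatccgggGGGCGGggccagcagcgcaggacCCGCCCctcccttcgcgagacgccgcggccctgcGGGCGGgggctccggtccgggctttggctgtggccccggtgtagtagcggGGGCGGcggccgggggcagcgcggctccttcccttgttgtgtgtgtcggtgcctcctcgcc
ONECUT1 (chr15:52790337-52790586, minus strand): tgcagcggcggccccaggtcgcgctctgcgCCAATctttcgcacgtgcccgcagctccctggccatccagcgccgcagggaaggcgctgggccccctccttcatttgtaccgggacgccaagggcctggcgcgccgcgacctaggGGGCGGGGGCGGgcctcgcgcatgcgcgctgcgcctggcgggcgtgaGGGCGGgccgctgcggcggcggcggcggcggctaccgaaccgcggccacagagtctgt
ID2 (chr2:8681806-8682055, plus strand): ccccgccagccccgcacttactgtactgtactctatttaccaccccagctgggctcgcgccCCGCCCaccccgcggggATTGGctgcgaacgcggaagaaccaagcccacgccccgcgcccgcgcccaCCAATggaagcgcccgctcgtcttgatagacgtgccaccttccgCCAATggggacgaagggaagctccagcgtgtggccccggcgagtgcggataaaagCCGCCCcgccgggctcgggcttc
GATA6 (chr18:22169339-22169588, plus strand): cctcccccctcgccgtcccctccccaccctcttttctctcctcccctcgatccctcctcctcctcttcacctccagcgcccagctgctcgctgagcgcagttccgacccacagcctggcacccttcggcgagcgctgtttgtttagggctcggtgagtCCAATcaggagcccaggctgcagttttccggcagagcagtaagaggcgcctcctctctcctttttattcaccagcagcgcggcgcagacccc
ABCC2 (chr10:99782390-99782639, plus strand): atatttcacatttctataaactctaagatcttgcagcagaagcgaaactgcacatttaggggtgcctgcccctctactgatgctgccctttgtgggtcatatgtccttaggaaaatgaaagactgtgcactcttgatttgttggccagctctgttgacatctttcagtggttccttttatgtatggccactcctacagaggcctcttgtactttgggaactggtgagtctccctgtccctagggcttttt
APOH (chr17:66229416-66229665, minus strand): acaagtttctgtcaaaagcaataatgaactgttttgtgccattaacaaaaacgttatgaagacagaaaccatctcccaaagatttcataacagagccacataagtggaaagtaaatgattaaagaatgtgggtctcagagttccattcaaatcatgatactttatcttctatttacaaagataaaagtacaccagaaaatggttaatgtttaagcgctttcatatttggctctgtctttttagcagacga
The MNT, ONECUT1 and ID2 stretches held 35, 37 and 29 CpG dinucleotides, and GATA6 held 16. ABCC2 held 1 and APOH held 3, with neither motif in either stretch. All but the GATA6 start lay within the span of a domain, and the GATA6 start lay 586 bp outside it.

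Most domains were at the lower limit of the rule. There were 605 with 4 summits, 193 with 5, 82 with 6 and 60 with 7 or more, up to 18. The span between the first and the last summit ran over 1018 to 14693 bp with a median of 3221 bp and quartiles of 2524 and 4107 bp. Neighbouring summits inside a domain were a median of 854.5 bp apart, with quartiles of 573 and 1257 bp. Just inside the threshold, the domains of 4 summits had a median span of 2843 bp and a median best score of 15.2. Just outside it, the groups of 3 summits had a median span of 1919 bp and a median best score of 21.1. In 88 domains the widest gap was over 1900 bp, close to the joining distance.

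The domains were built mainly of weak summits. Their summits had a median score of 6.03, against 8.32 for summits outside the domains. Of the summits in domains, 25.2% scored 10 or more (24.0 to 26.5; 1107 of 4386), as did 45.1% of those outside (44.7 to 45.6; 18816 of 41692). Most domains thus held few strong summits. In 319 domains no summit reached 10, 280 had 1 such summit, 227 had 2, 91 had 3 and 22 had 4. The 1 remaining domain had 12 and lay in the 5S ribosomal RNA array. These are values of the library that chose the domains, and they describe it.

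The domains fell mostly into 2 kinds by place. A listed transcription start within 1000 bp was found for 344 domains (36.6%). Another 367 (39.0%) lay inside a protein-coding gene with no listed start and no gene boundary within 1000 bp. The remaining 229 lay at another gene boundary (133), inside a gene of another type (27) or between genes (69). Listed starts come from a table that is not complete and holds none on chromosome 8, so the count at starts is a lower one and some of the other domains may lie at starts.

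The domains at starts and those inside genes differed in build more than in length. The median span was 3510.5 bp at starts and 3084 bp inside genes. The median best score was 41.8 at starts and 8.43 inside genes. Smaller groups showed the same split, so it was not particular to the domains. Their values at starts and inside genes were 46.1 and 8.32 in groups of 3, 50.2 and 7.29 in groups of 2, and 51.8 and 5.42 in single summits. The other summits of the domain were weak in both kinds, with a median of 5.84 at starts and 4.64 inside genes. The best summit was a median of 5.67 times the middle value of its neighbours at starts and 1.94 times inside genes. In groups of 3 it was 3.49 and 1.82 times. At starts, 141 domains held 2 summits of score 10 or more, 98 held 1, 58 held 3, 14 held 4 and 33 held none. Inside genes, 216 (58.9%) held none, 111 held 1, 28 held 2, 9 held 3 and 3 held 4. Of the groups of 3 inside genes, 59.6% held none.

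**Figure D1:**
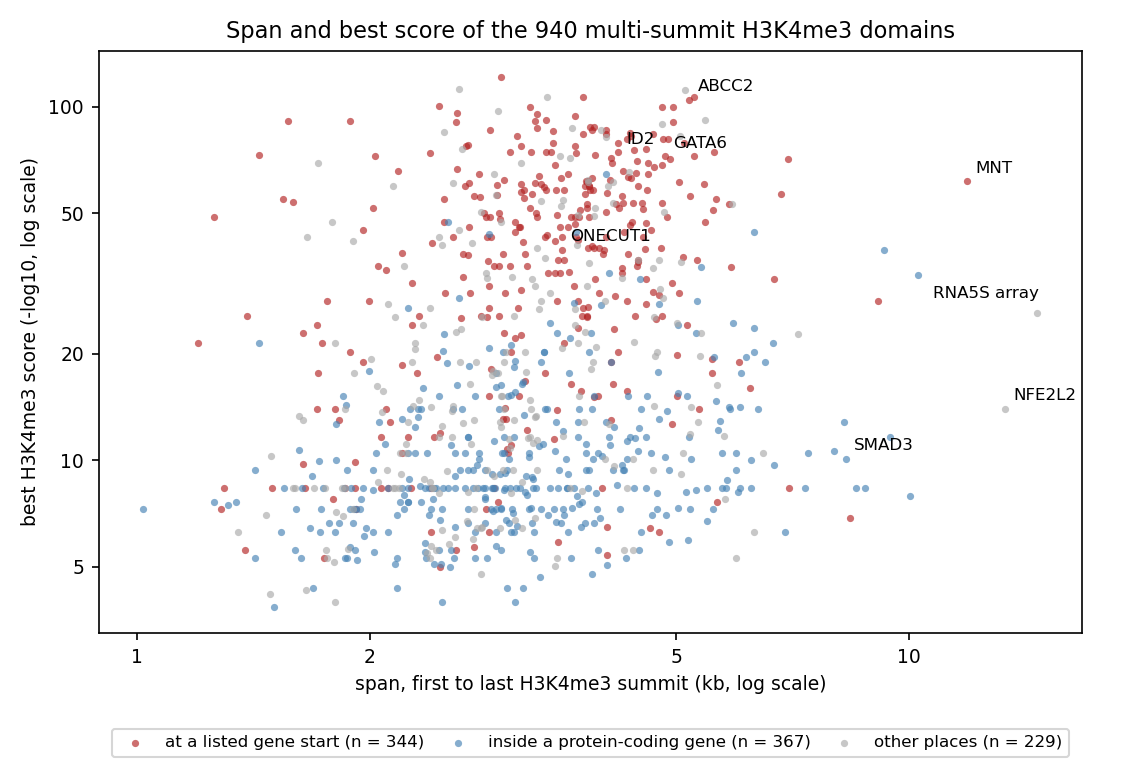
Each point is 1 of the 940 multi-summit H3K4me3 domains, with its span in kb on the x axis and the −log10 score of its best summit on the y axis (both log scales), coloured by place. Domains at listed starts lie mostly above those inside protein-coding genes (median best score 41.8 against 8.43), while their spans overlap. The rows of points at one height come from scores that recur, such as 8.32, the best score of 72 domains.

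The 2 other marks, which had no part in the choice, were frequent inside the domains. An H3K27ac summit lay within the span of 737 domains (78.4%, 75.7 to 80.9) and an H3K4me1 summit within that of 610 (64.9%, 61.8 to 67.9). Both marks lay in 477 domains, H3K27ac alone in 260, H3K4me1 alone in 133 and neither in 70. These sets differed in H3K4me3: the median best score was 11.6 with both marks, 38.9 with H3K27ac alone, 8.32 with H3K4me1 alone and 18.1 with neither. Of the domains with H3K27ac alone, 161 of 260 were at a listed start, against 22 of the 133 with H3K4me1 alone.

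The share with H3K4me1 was lower among domains with stronger H3K4me3. Among the 304 domains with a best score of 5 to 10, 83.2% held an H3K4me1 summit, 70.4% held H3K27ac and 32 of the 304 were at a listed start. Among the 181 domains with a best score of 40 to 80, 38.7% held H3K4me1, 172 held H3K27ac and 143 of the 181 were at a start. The 44 domains at or above 80 did not continue this order. Of these, 45.5% held H3K4me1 and 81.8% held H3K27ac.

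Because a longer span has more room for other summits, the marks were also counted within 1000 bp of each group's best H3K4me3 summit, the same width for every group. H3K4me1 lay there in 48.4% of the multi-summit domains (45.2 to 51.6), 36.5% of groups of 3, 29.7% of groups of 2 and 29.1% of single summits. Over all 31022 groups the share was 30.3%. H3K27ac lay there in 73.0% of the domains (70.1 to 75.7), 75.2% of groups of 3, 73.8% of groups of 2 and 58.0% of single summits, against 63.4% of all groups. At this width the domains were thus above the other groups in H3K4me1. In H3K27ac their interval overlapped the values of the groups of 2 and 3 summits.

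Split by place, the H3K4me1 difference was seen at starts but not everywhere. At listed starts, H3K4me1 lay near the best summit of 18.9% of the domains (15.1 to 23.4), 11.6% of groups of 3 (9.72 to 13.8), 8.37% of groups of 2 and 8.37% of single summits. H3K27ac at those starts was similar across group sizes, at 79.4%, 80.2%, 81.6% and 77.7% in groups of 4 or more, 3, 2 and 1. Inside protein-coding genes, H3K4me1 lay near the best summit of 76.0% of the domains (71.4 to 80.1) and 72.1% of groups of 3 (68.3 to 75.6), whose intervals overlap. The share was 59.2% in groups of 2 and 43.2% in single summits there. H3K27ac inside genes was at 65.7% of the domains (60.7 to 70.3), 69.0% of groups of 3, 64.2% of groups of 2 and 46.3% of single summits. At other gene boundaries, H3K4me1 lay near the best summit of 37.6% of the domains (29.8 to 46.1), 22.7% of groups of 3, 227 of 1135 groups of 2 and 19.6% of single summits. Between genes it lay at 58.0% of the domains (46.2 to 68.9), which was no higher than the 58.3% of groups of 3, with 50.7% in groups of 2 and 36.5% in single summits. Inside genes of other types only 27 domains were present, with 77.8% (59.2 to 89.4), and their interval overlapped that of groups of 3 at 64.5% (53.3 to 74.3).

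**Figure D2:**
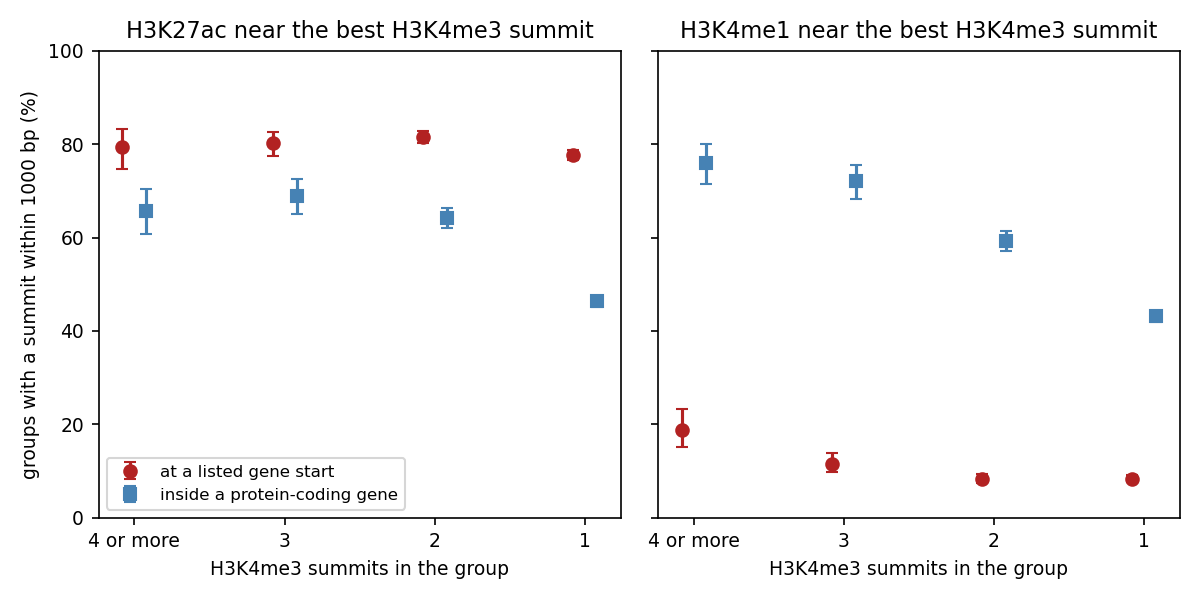
The y axis gives the percentage of H3K4me3 groups with an H3K27ac (left) or H3K4me1 (right) summit within 1000 bp of the best H3K4me3 summit, with 95% Wilson intervals, by number of H3K4me3 summits on the x axis. H3K4me1 stands at 18.9% in groups of 4 or more and 8.37% in single summits at listed starts, and at 76.0% and 43.2% inside protein-coding genes, while H3K27ac at starts stays between 77.7% and 81.6%.

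The 2 marks were also followed along the domains and their flanks. In domains inside genes, H3K4me1 summits stood at 0.571 to 0.680 per kb across the span and at 0.620 per kb in the first 1000 bp outside it. They fell off to 0.309 per kb at 3000 to 5000 bp, against a genome-wide value of 0.0285. In domains at starts, H3K4me1 stood at 0.199 to 0.264 per kb inside and 0.250 per kb in the first 1000 bp outside. H3K27ac in domains inside genes stood at 0.324 to 0.477 per kb across the span, 0.281 per kb in the first 1000 bp outside and 0.225 per kb at 3000 to 5000 bp. At starts it stood at 0.549 per kb in the outermost of 5 equal steps between edge and centre and 0.378 to 0.419 per kb further in, against 0.263 per kb in the first 1000 bp outside, 0.102 per kb at 3000 to 5000 bp and 0.0231 genome-wide. The edge of a span is an H3K4me3 summit by construction.

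H3K27ac summits lay closer to H3K4me3 summits than H3K4me1 summits did. Of the 1350 H3K27ac summits inside domains, 34.7% (32.2 to 37.2) fell in the middle 50% of the gap between H3K4me3 summits, and their median distance to the nearest H3K4me3 summit was 128.5 bp. Of the 1393 H3K4me1 summits, 45.2% (42.6 to 47.8) fell there, at a median distance of 214 bp. An even placement gives 50%, and both intervals lay below it. In domains at starts the contrast was larger, with 32.9% (29.0 to 37.0) and 93 bp for H3K27ac, and 49.1% (43.3 to 54.9) and 245 bp for H3K4me1. The H3K4me1 interval at starts included 50%. In domains inside protein-coding genes the shares were 37.4% (33.3 to 41.7) for H3K27ac and 44.4% (41.0 to 47.9) for H3K4me1.

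The layout around gene starts was read from groups lying at a start of exactly 1 protein-coding gene. There were 254 such domains of 4 or more summits. Their first edge lay a median of 1261 bp upstream of the start and their last edge 1996.5 bp downstream. In groups of 3 these edges were at 810 bp upstream and 1186 bp downstream (n = 721), and in groups of 2 at 373 bp and 531 bp (n = 2670). The edges are the first and last of the summits counted for the class. Their order by class thus follows largely from the rule. The best summit sat at nearly the same place in each class. It lay a median of 282 bp downstream of the start in the domains, 304 bp in groups of 3, 295 bp in groups of 2 and 217 bp for single summits (n = 4692). It was downstream of the start in 76.0% of the domains, 83.2% of groups of 3, 86.0% of groups of 2 and 83.5% of single summits. The best summit was not stronger in the domains. Its median score was 42.9 in the domains, 47.2 in groups of 3, 50.3 in groups of 2 and 51.8 in single summits.

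Around these starts the domains had more H3K4me1, near and far, and more H3K27ac at a distance. Within 1000 bp of the start, an H3K4me1 summit lay at 17.7% of the starts with domains (13.5 to 22.9), 9.85% with groups of 3, 7.19% with groups of 2 and 7.27% with single summits. Between 1000 and 3000 bp upstream, an H3K4me1 summit lay at 33.1% of the starts with domains (27.6 to 39.1), 19.8% with groups of 3, 13.2% with groups of 2 and 12.5% with single summits. H3K27ac lay there at 28.7% of the starts with domains (23.5 to 34.6), 19.6% with groups of 3, 13.2% with groups of 2 and 12.3% with single summits. Between 3000 and 5000 bp downstream, beyond the median edge of the domains, H3K27ac lay at 17.3% of starts with domains (13.2 to 22.5) and 8.74% of starts with single summits. H3K4me1 lay there at 66 of the 254 starts with domains and at 14.7% of starts with single summits. Within 1000 bp of the start, the shares with H3K27ac were close, at 79.1% (73.7 to 83.7) with domains and 79.9% with single summits.

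**Figure D3:**
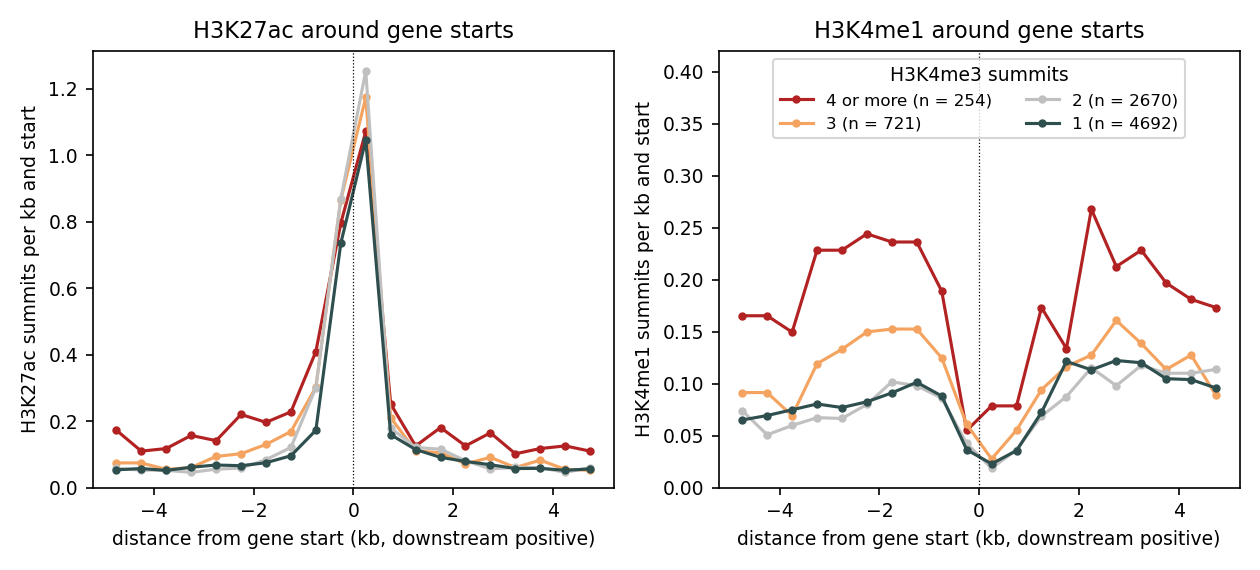
H3K27ac (left) and H3K4me1 (right) summits per kb and start, in bins of 500 bp, against the distance in kb from the start of a single protein-coding gene, by the number of H3K4me3 summits in the group at that start. H3K27ac peaks at the start in each class, and H3K4me1 dips there, with the 254 starts of groups of 4 or more summits above the other classes beyond 500 bp on both sides.

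Promoters of genes with a domain were CpG-rich, as were those of genes with smaller groups. Among protein-coding genes, the 300 bases around a listed start held a median of 26 CpG where a domain lay within 1000 bp (459 promoters), 27 with groups of 3, 28 with groups of 2 and 26 with single summits. Promoters with no H3K4me3 group held 7, and all protein-coding promoters 21. A GC box on either strand, the binding motif of the SP and KLF factors, was found in 71.9% of promoters at domains, and in 73.8%, 75.8% and 69.7% of those at groups of 3, 2 and 1. It was found in 56.3% of all protein-coding promoters of this length and in 45.0% of all promoters. CCAAT or ATTGG was in 39.4% of promoters at domains, 42.5%, 40.6% and 30.3% of those at groups of 3, 2 and 1, and 34.6% of all. TATAAA or TTTATA was in 6.32% at domains, 5.30%, 5.07% and 4.70% at groups of 3, 2 and 1, and 9.46% of all protein-coding promoters. The ETS core CCGGAA or TTCCGG was in 21.6% at domains, in 293 of the 1170 promoters at groups of 3, in 28.5% at groups of 2 and 32.1% at single summits, and 21.2% of all protein-coding promoters. The domains were not all alike: 30 promoters whose domain had a best score under 10 held a median of 6.5 CpG, and 30% had a GC box, against 27 CpG and 74.8% in the 429 promoters whose domain reached 10. APOH, shown above, was among the 30, with a best score of 9.85. Single genes departed from this: ABCC2 was CpG-poor with a best score of 105, and KLF15 had a best score of 8.32 and 40 CpG in the 250 bases before its start.

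Of the 940 domains, 861 (91.6%) overlapped an annotated gene and 750 (79.8%) a protein-coding one, while 202 overlapped a gene of a long non-coding RNA (lncRNA). The domains overlapped 779 of 19974 protein-coding genes, a background of 3.90% for the lists below. This background counts all genes, with or without H3K4me3, and is not matched to lists in which most genes carry the mark. They overlapped 212 of 18177 lncRNA genes (1.17%). A listed start lay at a domain for 346 of 15812 protein-coding genes (2.19%). The overlapped genes were long, with a median of 46958 bp against 23631 bp for the other protein-coding genes. The share overlapped was 2.16% for genes under 10 kb, 3.39% at 10 to 30 kb, 4.51% at 30 to 100 kb, 6.55% at 100 to 300 kb and 7.13% above 300 kb. The share was thus higher in each longer class of genes.

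More than 1 domain was found in 51 genes, named here after their values were seen. PRKCA, which encodes protein kinase C alpha, had 6. EPS8, an actin-capping adaptor, and TRIO, a guanine nucleotide exchange factor, had 5 each. Another 9 genes had 3, among them SMAD3, MBNL1 and YWHAE, and 39 had 2.

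The domain with the most summits lay in the array of 5S ribosomal RNA genes on chromosome 1 (chr1:228613715-228628407, hg38), over RNA5S3 to RNA5S9. It had 18 summits over 14693 bp, with scores of 4.55 to 26.1, 11 H3K27ac summits and no H3K4me1 summit. The array holds 17 near-identical genes at a median spacing of 2241 bp, so the copy to which each read belongs is uncertain. Over the whole array and 3000 bp on each side there were 29 H3K4me3, 32 H3K27ac and 0 H3K4me1 summits.

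The runs with the next most summits lay at NFE2L2 and MNT and differed in their strong summits. NFE2L2 encodes NRF2, the master factor of the oxidative stress response. Its domain had 16 summits over 13346 bp (chr2:177244545-177257890), with scores of 1.54 to 14.0, 6 H3K27ac and 9 H3K4me1 summits, and it lay 6241 bp from the nearest listed NFE2L2 start. The strongest H3K4me3 summit of the NFE2L2 gene, at 85.8, was outside this domain. MNT encodes a MAX-binding repressor that opposes MYC. Its domain had 13 summits over 11912 bp across its start (chr17:2396245-2408156), with a strongest pair of 61.5 and 33.1, 5 H3K27ac and 9 H3K4me1 summits.

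Several other long runs had mostly weak summits. ZDHHC7, a palmitoyltransferase gene, and RAPGEF1, which encodes a RAP1 exchange factor, had 12 summits each, with best scores of 11.6 and 6.84. The PRKCA domain had 11 summits with scores of 3.23 to 7.92. ATXN1, PTPRK, FN1 and VAPA had 10 each, with best scores of 8.32, 8.32, 6.28 and 10.5. FN1 encodes fibronectin, and its domain lay in the gene body, while the strongest summit at the gene, 69.3, lay outside the domain. Others held a strong summit. AKR1C2, an aldo-keto reductase gene of steroid metabolism, had 10 summits around its start with a best score of 36.8 and 9 others between 3.97 and 8.32. AGO2, the slicer of RNA interference, had 11 summits with a best score of 33.4, 9 H3K27ac and 6 H3K4me1 summits. Of the 8 runs of 9, the longest lay in CTNND1 (best score 39.3), SMAD3 (10.1) and ARHGAP26 (12.8). ZFHX3, a homeodomain factor gene, had 8 summits over 9115 bp with a best score of 28.2.

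The 10 domains of highest score held 4 to 8 summits over spans of 2460 to 5276 bp. The shared start of APTX and DNAJA1 had the best score of all domains, 121, in a run of 4 with scores of 2.34, 3.97, 73.1 and 121. MEF2D, a MADS-box factor gene, had 112 beside summits of 2.83, 2.44 and 6.38. TRIB1, a pseudokinase gene of hepatic lipid metabolism, had 112 as the best of 5 summits. H3-3B, a gene of histone H3.3, shared a domain of 8 with UNK, with 107 at one end and 60.1 at the other. MSTO1 had 106, ABCC2 105, SEPTIN9 100.02 and TMEM41B 99.5, a score that a domain at NPTN also had. HERC2P11 (107) and WASH7P with MIR1302-2HG (101) lie in duplicated sequence, where the copy is uncertain. In SEPTIN9 and MEF2D a single summit above 10 stood beside weak ones, while DNAJA1 and H3-3B had 2 and 3 above 10.

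Among the domains without an H3K27ac summit, those with most H3K4me3 summits were VAPA (10 summits), the lncRNA gene ITGB1-DT (8), NPM1 (7), YWHAE (7) and PTBP3, the longest of 24 with 6. Each of the 5 named held 1 to 6 H3K4me1 summits, and their best scores lay between 7.01 and 22.8. The NPM1, YWHAE and PTBP3 domains were inside the gene, away from the start. Among domains in no gene, one of 9 summits on chromosome 16 (chr16:29260821-29265913) had a best score of 10.5. A pair of neighbours on chromosome 3 had 8 summits with 8 H3K4me1 summits (chr3:109920988-109928177) and 7 summits with 4 H3K27ac summits (chr3:109930576-109936555). The nearest protein-coding gene of that pair, DPPA4, was 581352 bp away. A run of 8 on chromosome 11 (chr11:65491610-65497248) ended 490 bp from the start of the lncRNA gene MALAT1. A run of 6 on chromosome 20 (chr20:50761360-50767133) had 4 H3K4me1 summits, no H3K27ac and lay 7619 bp from PARD6B.

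The cell-identity regulators were looked at through a list of 35 transcription factor genes of liver identity. Domains overlapped 6 of them (17.1%, 8.10 to 32.7), against 3.90% of all protein-coding genes. Any H3K4me3 summit was found at 32 of the 35, while the 3.90% also counts genes without the mark. The list was chosen with earlier results of these data known, and its count is a description. The list's median gene length was 20734 bp. The count fell to 1 with joining at 1000 bp or a minimum of 5 summits, and to 0 with scores of at least 5. Of the 6, 3 had their own listed start at a domain, namely ONECUT1, GATA6 and KLF15.

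ONECUT1 encodes HNF6, a factor of hepatocyte and bile duct development. Its domain (chr15:52788115-52791662) had 4 summits over 3548 bp across the start, a best score of 39.4, 1 H3K27ac summit of score 2.06 and no H3K4me1. GATA6 encodes a zinc-finger factor of endoderm. Its domain (chr18:22170175-22175010) had 4 summits over 4836 bp, a best score of 72.6, no H3K27ac inside and 2 H3K4me1 summits. H3K27ac summits of 46.4 and 51.0 lay just before the span, at -390 and -954 bp from its first H3K4me3 summit, on the 2 sides of the start. KLF15, a factor of hepatic fasting metabolism, had 4 weak summits over 1647 bp, a best score of 8.32 and neither other mark. The best scores of these domains at regulator starts thus lay far apart.

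For the other 3, no listed start of the gene itself lay within 1000 bp of the domain. PROX1, a homeodomain factor of hepatoblasts and lymphatic endothelium, had 5 summits over 5556 bp with a best score of 19.3 and neither other mark. The listed start in that domain belonged to PROX1-AS1, and none was listed for PROX1. A boundary of the PROX1 gene lay inside the domain, so the domain may cover its start. RXRA, the partner of many nuclear receptors of liver, had 4 summits with a best score of 10.0 in the gene body, 27712 bp from a start, while the best summit of the gene was 62.9. TCF7L2, a factor of WNT signalling, had 4 summits with a best score of 7.29 and 3 H3K4me1 summits, while the best in the gene was 80.8. The TCF7L2 domain lay 1099 bp from a listed start of the gene, just beyond the 1000 bp window.

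Several factors usually placed at the centre of hepatocyte identity had strong H3K4me3 without a multi-summit domain. The largest H3K4me3 group of HNF4A and of CEBPA held 2 summits, with best scores in the gene of 71.9 and 87.4. FOXA1, FOXA2 and CEBPB had 1 summit in their largest group, with best scores of 51.8, 95.1 and 90.6. FOXA3, NR0B2 and NR1I3 had no H3K4me3 summit. Over the 35 genes, the largest group held 5 summits in 1 gene, 4 in 5, 2 in 12, 1 in 14 and 0 in 3. Of the 9 hepatocyte lineage markers, 6 had any H3K4me3 summit, and ALB, TTR and SERPINA1 had none. APOA1 was counted among the 6 through 1 summit of score 1.80. Of the epithelial markers 4 of 5 had one, of the mesenchymal markers 3 of 3, and of the markers of other cells 3 of 5. EPCAM, COL1A1 and MYH7 had none, and PTPRC had 1 summit of score 7.29. PECAM1, another of the markers of other cells, had 3 summits with a best score of 25.4. The largest group at a hepatocyte lineage marker held 2 summits. FN1, KRT8 and GRHL2 had groups of 10, 5 and 4, but of weak summits, with best scores in these groups of 6.28, 9.04 and 5.52. CD68, a macrophage marker, lay in a domain of 7 with a best score of 51.1, which it shared with EIF4A1 and MPDU1.

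**Figure D4:**
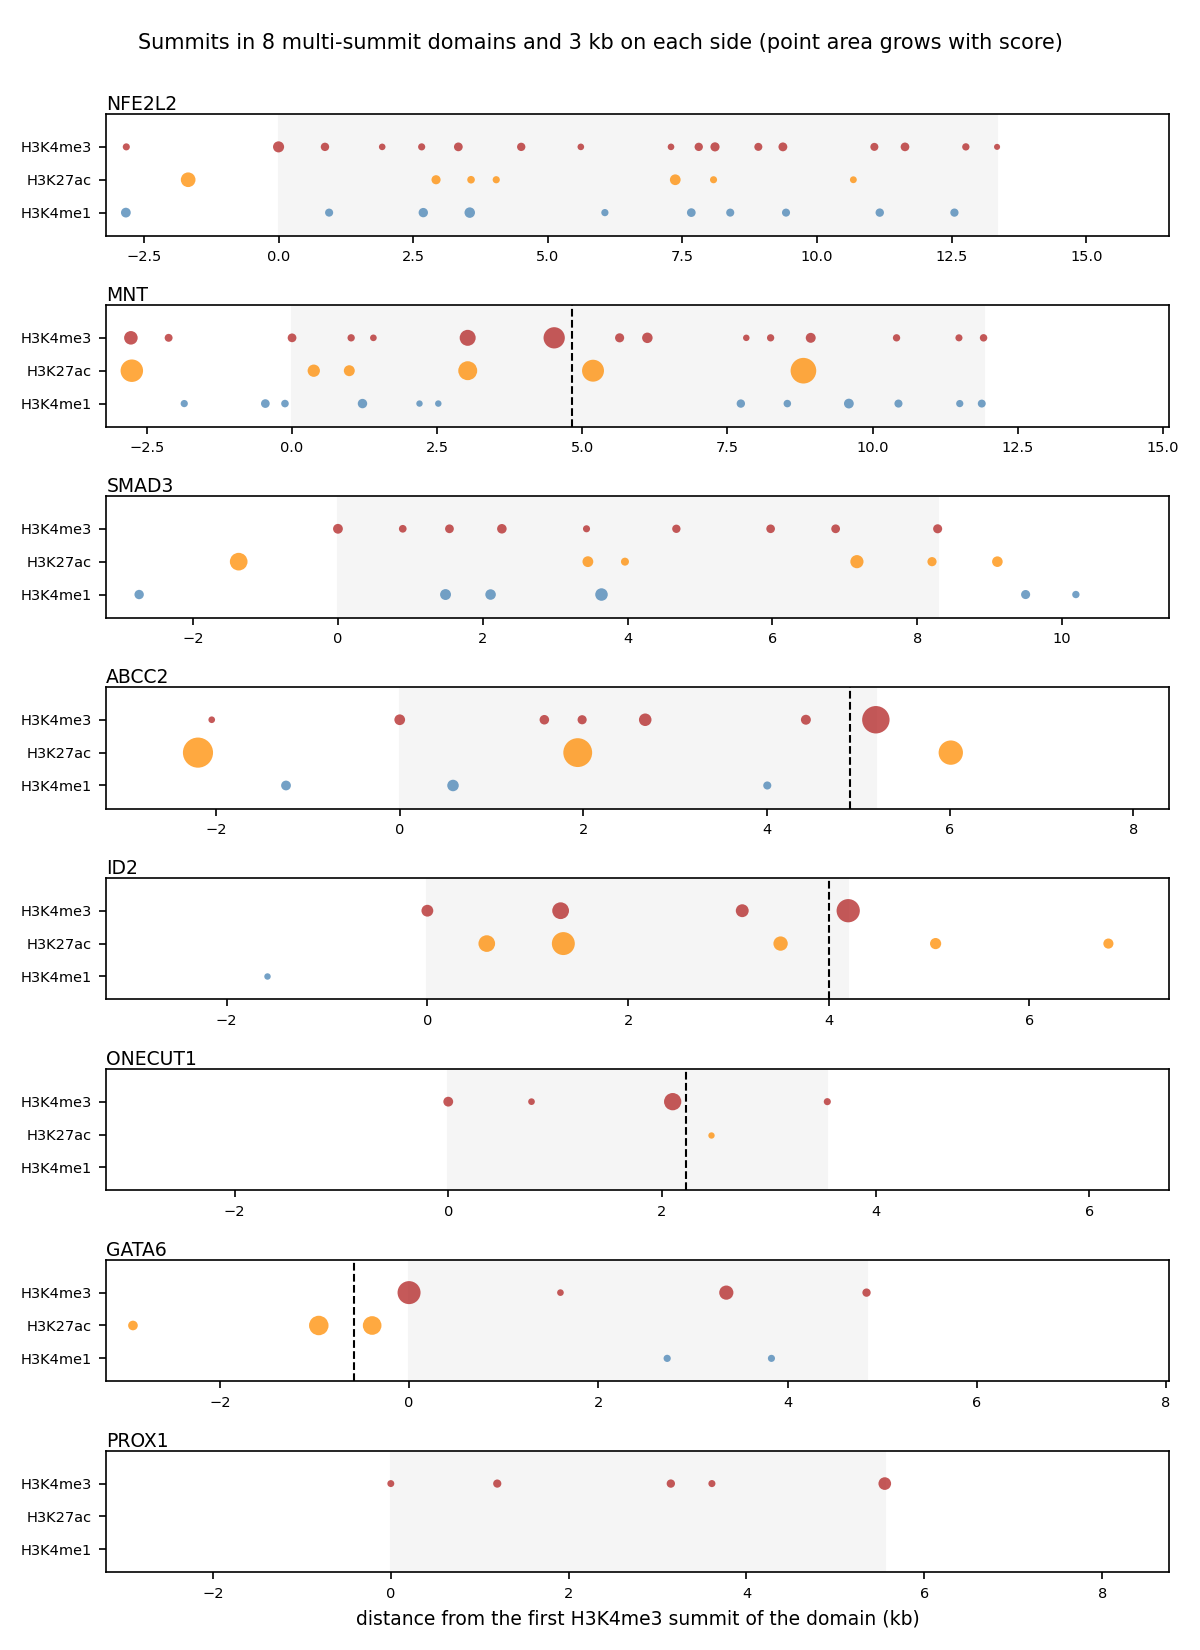
Summits of H3K4me3, H3K27ac and H3K4me1 (rows) in 8 multi-summit domains (grey span) and 3 kb on each side, against the distance in kb from the domain's first H3K4me3 summit. Point area grows with the −log10 score of the summit, and dashed lines mark listed starts of the named gene. NFE2L2 and SMAD3 show even runs of weak H3K4me3 summits interspersed with H3K4me1, MNT, ABCC2, ID2, ONECUT1 and GATA6 show a strong summit near the start, and PROX1 shows 5 H3K4me3 summits with neither other mark.

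The list with the highest share was that of YAP, TEAD and SMAD factors, the end points of Hippo and TGF-β signalling, with 5 of 16 overlapped (31.3%, 14.2 to 55.6). These genes are long, with a median of 80947 bp, and all 16 had an H3K4me3 summit. SMAD3 had 9 summits in its largest domain (best score 10.1), SMAD7 6 (11.6), WWTR1, the gene of TAZ, 5 (8.14), TEAD1 4 (33.9) and VGLL4 4 (7.48). Each of these 5 domains lay inside the gene, away from a listed start, with 1 to 4 H3K4me1 summits. Of the 16 genes, SMAD3 alone also had a listed start at a domain, one of its 3. The best summits of these genes, at 58.1 in SMAD7 to 105 in VGLL4, were outside the domains named.

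Epithelial and progenitor regulators had 4 of 32 overlapped (12.5%, 4.97 to 28.1). ID2, an inhibitor of basic helix-loop-helix factors, had 4 summits over 4195 bp (chr2:8678058-8682252) ending just past its start, with a best score of 74.2, 3 H3K27ac summits and no H3K4me1. KLF3, SOX13 and the epithelial factor GRHL2 had runs of 4 inside the gene with best scores of 9.40, 9.40 and 5.52. Of 16 regulators of epithelial-mesenchymal transition 0 were overlapped (upper Wilson bound 19.4%), and 1 of 24 AP-1 and stress factors was, NFE2L2. Oncogenes had 3 of 34: CCND3, the gene of cyclin D3, at its start (5 summits, best score 53.4), MET, the hepatocyte growth factor receptor gene (5, 32.8), and EGFR (4, 8.32). The MET domain lay 15681 bp from its listed start, and the best summit in MET was 164.

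Hepatocyte function genes had 2 of 40, ABCC2 and APOH, both at the start. ABCC2 encodes the canalicular transporter MRP2. Its domain (chr10:99777727-99782919) had 6 summits with scores of 12.8, 9.40, 8.32, 18.9, 10.5 and 105, the strongest just past the start, and 1 H3K27ac and 2 H3K4me1 summits. APOH, a plasma glycoprotein gene of hepatocytes, had 4 summits over 1914 bp, 2 H3K4me1 summits and no H3K27ac. These 2 starts were the CpG-poor ones shown above.

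Tumour suppressor genes had 2 of 37, ZNRF3 (4 summits, best score 5.30) and SETD2 (4, 7.29), both inside the gene. Chromatin modifier genes had 2 of 30 (6.67%, 1.85 to 21.3). These were KDM5B, which encodes an H3K4 demethylase, at its start (4, 56.5), and KDM6A, which encodes an H3K27 demethylase, in the gene body (6, 32.5). Housekeeping genes had 2 of 24 (8.33%, 2.32 to 25.8), POLR2A at its start (4, 68.5) and YWHAZ inside the gene (4, 6.50). Proliferation genes had 1 of 26 (3.85%, 0.682 to 18.9), MCM5 (4, 40.7). The HOX genes had 2 of 39 (5.13%, 1.42 to 16.9), HOXC8 (6, 19.7) and HOXA3 (4, 21.5), neither at a listed start of its own.

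Among 5 lists of regulators of other lineages, 3 gave no overlap. Neural regulators had 1 of 20 (5.00%, 0.888 to 23.6), PAX6 (5 summits, best score 23.6, neither other mark). Endothelial and stellate regulators had 2 of 16 (12.5%, 3.50 to 36.0), PROX1 and ETV2, and the listed start in the ETV2 domain was that of COX6B1. Both intervals include 3.90%. Muscle and heart (0 of 14), blood and immune (0 of 22) and pluripotency and germline regulators (0 of 12) had none. Their upper Wilson bounds were 21.5%, 14.9% and 24.2%, all above the 3.90% of all protein-coding genes. Many genes of these lists had no H3K4me3 summit at all. Any such summit was found at 4 of the 14, 10 of the 22 and 3 of the 12, and at 5 of the 20 neural regulators. It was found at 13 of the 16 endothelial and stellate regulators and at 32 of the 35 liver identity regulators.

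Large gene families were counted in the same way. Replication-dependent histone genes had 4 of 73 (5.48%, 2.15 to 13.3), in 2 domains that each held a neighbouring pair, H2BC18 with H3C13 (best score 86.9) and H2BC4 with H2AC6 (46.6). Their interval includes 3.90%. Zinc finger genes had 6 of 509 (1.18%, 0.541 to 2.55), and the 3 with most summits were ZNF608 (7), ZNF329 (5) and ZNF469 (5). Cytosolic ribosomal protein genes had 1 of 86 (1.16%, 0.206 to 6.30), RPL14 (6 summits, best score 48.8). Keratin genes had 1 of 55 (1.82%, 0.322 to 9.61), KRT8 (5, 9.04). Both intervals include 3.90%. Olfactory receptor genes had 0 of 392 (upper bound 0.970%). Any H3K4me3 summit was found at 84 of the 86 ribosomal protein genes and 386 of the 509 zinc finger genes. It was found at only 9 of the 55 keratin genes and 7 of the 392 olfactory receptor genes. Members of these families have near-identical copies, so their values are uncertain.

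Among 28 lncRNA genes studied in liver cancer, 4 were overlapped (14.3%, 5.70 to 31.5), against 1.17% of all lncRNA genes. Any H3K4me3 summit was found at 25 of the 28, while the 1.17% also counts lncRNA genes without the mark. The 4 were CYTOR (6 summits, best score 30.5), PVT1 (5, 14.2), LINC-PINT (5, 12.8) and HOTAIR (5, 6.45), all inside the gene. Of 1558 miRNA hairpins, 12 (0.770%) lay in domains, among them MIR3128 in the NFE2L2 domain, MIR4738 in the H3-3B domain and MIR191 in a domain over DALRD3, NDUFAF3 and IMPDH2 with a best score of 53.0.

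**Figure D5:**
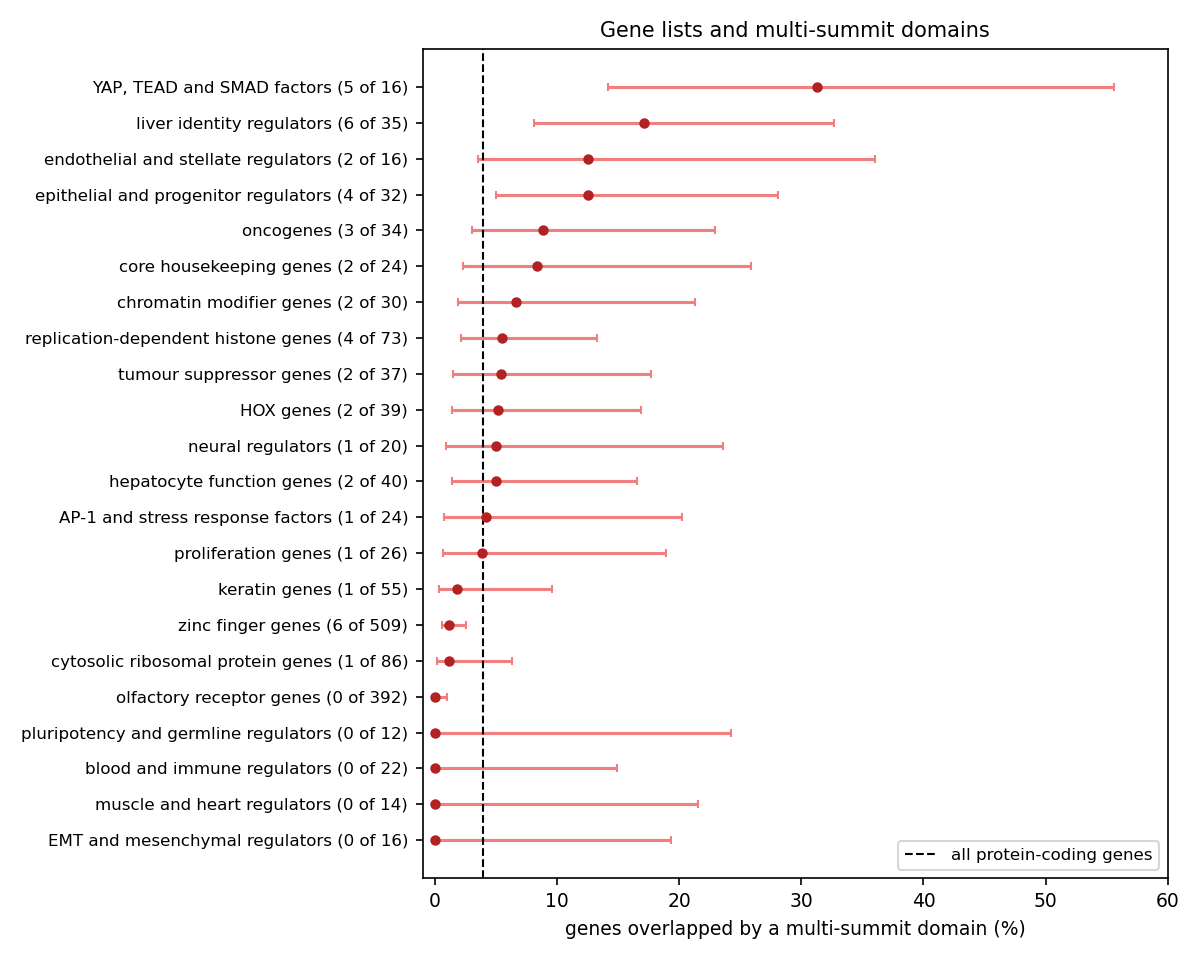
Percentage of the genes of 22 lists overlapped by a multi-summit H3K4me3 domain (points), with 95% Wilson intervals, and the share over all protein-coding genes, 3.90%, as a dashed line; the numbers overlapped and in the list stand beside each name. The YAP, TEAD and SMAD factors (31.3%) and the liver identity regulators (17.1%) lie highest, and the zinc finger genes (1.18%) and olfactory receptor genes (0 of 392) have intervals below the line.

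The domains were spread over all chromosomes, with chromosome 21 apart. The share of H3K4me3 summits that lay in domains was 18.4% on chromosome 21 (15.3 to 21.9; 96 of 522), and 6.29% (chromosome 4) to 12.1% (chromosome 17) on the others. Of the 21 domains on chromosome 21, 13 lay in its first 10 Mb, a stretch rich in segmental duplication. All 13 held an H3K27ac summit and none an H3K4me1 summit, although 45 H3K4me1 summits were called in that stretch. On the rest of the chromosome 9.85% of summits were in domains. The part of duplicated sequence in these domains was not tested. On chromosome 13, all 8 domains lacked H3K4me1, a feature picked out after its values were seen. Smaller H3K4me3 groups at RB1, KLF5, ELF1 and MIR17HG on this chromosome, of 2 or 3 summits, held no H3K4me1 summit either. No count of H3K4me1 summits over the whole of chromosome 13 is given here. The lack is therefore not read as a trait of the domains, and whether it was particular to them was not tested.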

How the data were processed

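ChIP-seq summit lists of H3K4me3, H3K27ac and H3K4me1 in MHCC97L cells, 1 library each, were analysed. Per the submitters' processing notes the tools were Bowtie, Picard, deepTools and MACS2 with hg38. Versions, settings and any use of the input: not given in the sources used here. Each deposited list holds one position per peak and a −log10 score, whose kind (p-value or q-value) the authors did not state in the file. Read depth is unknown. The lowest scores are near the −log10 of 0.05, 1.30.

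Summits of chromosomes 1 to 22 and X were joined at most 2000 bp apart with Python 3.11.15, pandas 2.3.3, numpy 2.4.6 and scipy 1.17.1. The joining and counting steps were tested on simulated data. Genes came from RefSeq (GRCh38.p14, the assembly behind hg38) and listed starts from its promoter table. All entries of the 23 gene lists were matched. The members and the lists were chosen with earlier results of these data known. Domains named were those with the most summits (15), longest span (10), highest best score (10), most H3K27ac (5) or H3K4me1 (5), most summits without H3K27ac (5) or outside genes (5), those of liver identity regulators, and up to 4 per other list.

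Shares carry 95% Wilson intervals. Alternatives changed the joining distance, the least number of summits, the score minimum of all 3 marks and the gene and mark windows.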

Additional observations from a re-analysis of the deposited data

Results flagged for a closer look

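Outside the chromosomes used, 97 H3K4me3 summits lay on 27 unplaced contigs. Joined by the same rule, they gave 5 multi-summit domains on 4 contigs, of up to 5 summits, with best scores of 24.7 to 58.1. This is a signal in data that the comparisons did not use, and the input is not used here.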

How the results depend on the processing

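No paired analysis was possible because each mark had 1 library and no result came from a test. In place of 940 domains, joining at 1000 bp gave 280 and at 3000 bp 1477. A minimum of 3 summits gave 3008 and of 5 gave 335. Scores of at least 5 gave 241 and of at least 10 gave 17. These minimums were applied to all 3 marks, so weaker H3K27ac and H3K4me1 summits were dropped as well. The median score over all H3K4me1 summits was 4.58. Shares with a mark inside at these minimums therefore count only the stronger summits of that mark. Requiring at least 1 H3K4me3 summit of score 10 or more, an alternative chosen after seeing the data, gave 621 domains. The median span was 2071 and 4248 bp with the joining distances of 1000 and 3000 bp, 2246.5 and 4312 bp with minimums of 3 and 5, 2686 bp at scores of at least 10 and 3493 bp with the added alternative. The share with H3K27ac inside was 66.1% and 85.6% with those joining distances, 72.7% with a minimum of 3, 94.1% at scores of at least 10, 88.6% with spans widened by 1000 bp and 82.4% with the added alternative. The share with H3K4me1 was 44.5% and 75.8% with minimums of 3 and 5, 44.4% at scores of at least 5, 0% of 17 at scores of at least 10 (upper Wilson bound 18.4%), 72.8% with widened spans and 55.4% with the added alternative. Protein-coding genes overlapped numbered 205 and 1362 with joining at 1000 and 3000 bp, 2326 and 292 with minimums of 3 and 5, 210 and 12 at scores of at least 5 and 10, and 401 where a gene boundary or listed start had to lie in the span. Liver identity regulators overlapped fell to 1 with joining at 1000 bp, 1 with a minimum of 5, 0 at scores of at least 5, 0 at scores of at least 10, and 3 with a boundary or start in the span. These 3 were ONECUT1, KLF15 and PROX1, and the GATA6 start lay outside the span. The cause of these shifts was not tested. The other 17 values stayed within 1.5 times (counts) or within the interval of the value reported, and counting peaks in place of summits is the same by construction. Peak width, read depth and library complexity were not in the lists, so how far weak summits depend on depth could not be seen.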
